A study of Mus musculus with 11 samples.

Results

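The genes described here are 10 members of the Notch signalling pathway, measured in the brains of mouse embryos at embryonic day 9.5. They are the ligand genes Dll1 and Jag1, the ligand relative Dll3, the receptor gene Notch1, the sugar transferase gene Lfng, the target genes Hes1, Hes5 and Nrarp, and the Hes family genes Hes3 and Hes6. They were taken by symbol from the 27179 genes counted in each embryo, and all 10 passed the expression filter that left 14542 genes to test. The tissue was the head end of the neural tube, cut just behind the otic vesicle, the primordium of the inner ear, and polyadenylated RNA from each embryo was sequenced as a library of its own. The embryos fell into 3 groups on the C57BL/6 background. The 4 affected females were labelled p53-/- Bim+/-, the 4 control males p53-/- Bim+/-, and the 3 control females p53+/+ Bim+/-. The labels thus give all 11 embryos, controls included, the same heterozygous genotype at Bim (Bcl2l11), which encodes a protein that promotes cell death. The counts of Bcl2l11 nevertheless differed between the groups (CPM is defined below). Affected females had 38.2 to 47.3 CPM and control males 36.0 to 47.7 CPM, against 71.0 to 82.1 CPM in control females, with no overlap. A difference in Bim genotype and the labelled difference in p53 cannot be told apart here. What being affected meant is not stated in the labels. As background, mice without p53 often fail to close the neural tube, and females do so more often than males.

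Notch signalling works between neighbouring cells. A Delta or Jagged ligand on the surface of a cell binds a Notch receptor on its neighbour, and proteases then release the intracellular part of the receptor, which enters the nucleus and joins the DNA-binding protein RBPJ and a Mastermind coactivator to switch on target genes. In the neural tube the best known targets are Hes1 and Hes5, repressors that hold back the proneural transcription factors. Cells that escape this repression switch on proneural factors, raise Dll1 and become neurons, while their neighbours remain progenitors. Dll3 is a relative of Dll1 that does not activate Notch in neighbouring cells. Lfng adds sugar to Notch and changes how it responds to Delta and Jagged ligands. Hes6 opposes Hes1 and favours neuronal differentiation, Hes3 helps to maintain progenitors and is known for its expression at the boundary of midbrain and hindbrain, and Nrarp is induced by Notch and damps the signal.

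Proneural factors and RBPJ are known to act through short DNA sites in promoters, and the stretches of the members' promoters that hold such letters are shown here, since several members moved together. RefSeq windows (GRCm38.p6, the assembly that mm10 names) were found for 8 of the 10 members, with 10 windows in all since Dll1 and Hes6 have 2 each. In each, the 250 bases before an annotated start were searched on both strands for 2 E-boxes of the kind proneural factors bind, CAGCTG and the related sequence CAGATG, for GTGGGAA, the RBPJ site, and its shorter core TGGGAA, and for CACNAG, the N-box bound by Hes factors. The core lies within the longer RBPJ site, and the other motifs do not contain each other. CAGCTG was present in windows of 5 of the 8 members, Dll1, Dll3, Jag1, Lfng and Hes6, which is 6 of the 10 windows. It was in 13.0% of all 32851 windows of the same length. Counts of members here and below take any window of a gene, whereas the shares of all are per window. CAGATG was in no window of the 8 members and in 14.4% of all windows. GTGGGAA was present in windows of Lfng and Hes5 and in 5.4% of all windows, and TGGGAA in windows of the same 2 members and in 21.6% of all. CACNAG was in windows of 4 of the 8 members, Notch1, Lfng, Hes6 and Nrarp, and in 36.7% of all windows. The Dll1 window that lies just before the annotated 5′ end (chr17:15376933-15377182, minus strand) is given whole, with CAGCTG in capitals. The other Dll1 window, at a start inside the gene, holds no CAGCTG.
Dll1: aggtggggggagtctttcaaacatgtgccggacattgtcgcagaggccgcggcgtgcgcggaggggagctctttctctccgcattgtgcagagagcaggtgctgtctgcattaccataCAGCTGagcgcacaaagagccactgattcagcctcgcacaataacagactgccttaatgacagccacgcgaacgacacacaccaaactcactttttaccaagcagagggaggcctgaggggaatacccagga
For the other members 30 bases around the site are given, with the E-box or the RBPJ site in capitals. The stretches are chr7:28301786-28301815 (minus strand) for Dll3, chr2:137116585-137116614 (minus strand) for Jag1, chr1:91414192-91414221 (minus strand) for Hes6 and, for the E-box and the RBPJ site of Lfng, chr5:140607183-140607212 and chr5:140607221-140607250 (plus strand). The stretches of Hes5 lie at chr4:154960686-154960715 and chr4:154960829-154960858 (plus strand), before a start that lies inside the annotated Hes5 span, and its upstream copy reads as the reverse complement. The E-box stretch of Lfng also holds the short RBPJ core, as its reverse complement and not in capitals.
Dll3: aaatataagactccggcatccagCAGCTGc
Jag1: ccgcgtttcatgCAGCTGatctgaaaggga
Hes6: cggaagcggctgCAGCTGccaactgtcacg
Lfng E-box: ccgtgggtacccCAGCTGggtggttcccag
Lfng RBPJ: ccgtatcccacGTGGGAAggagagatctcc
Hes5 upstream: gggcgagcgcgTTCCCACagcccggacatt
Hes5 downstream: ggccgccgagtGTGGGAAcggccgcggcgc
A match of letters describes the window and does not show that a factor binds there.

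Library totals ranged from 8211942 to 11218682 counts. Levels below are CPM, the counts of a gene scaled to libraries of equal size by TMM (trimmed mean of M-values), and the members rested on 16 (Hes5) to 1468 (Jag1) counts in a single library. Xist and the Y-linked genes matched the sex label of every library, although Xist had 1435 to 2167 CPM in affected females, against 4391 to 5959 CPM in control females. Counts over the whole Trp53 gene did not separate the genotypes (107 to 139 CPM in the p53-/- affected females, 112 to 132 CPM in the p53-/- control males and 105 to 125 CPM in the p53+/+ control females). The p53 target Ccng1 did separate them, with 21.8 to 24.5, 27.5 to 33.5 and 74.7 to 93.8 CPM in these groups. Markers of neuroepithelium, among them Sox2, Pax6 and Otx2, summed to between 645 and 849.6 CPM in every library. The presomitic mesoderm, a trunk tissue in which Dll1, Dll3 and Lfng are also active, was low by its markers, of which 5 of 6 did not pass the expression filter: Msgn1 was at 0 in all 11 libraries and Tbx6 did not exceed 1.03 CPM. T (brachyury), the only member of that list tested, had 1.26 to 3.59 CPM in affected females, 0.82 to 1.38 CPM in control males and 1.11 to 2.87 CPM among the control females. It was not called (log2 fold change 0.97, adjusted p = 0.0632, against control males and 0.40, adjusted p = 0.431, against control females, edgeR), and its part in the results was not tested. Control female 1 and control male 4 stood apart from the rest of their groups, with chi-square values of 16.8 to 19.8 and 13.3 to 29.5 per degree of freedom against their group mates. The other pairs within a group had 2.61 to 10.8, so no pair looked like 1 library deposited again. Control female 1 also had the lowest sum of 4 erythroid genes of all 11 libraries, 492 CPM, with 4067 and 3880.0 CPM in the other control females.

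Compared per length of transcript, Hes1 and Jag1 were the most abundant of the 10 genes and Dll3 the least. The mean over all 11 embryos was 24.7 RPKM (CPM divided by the transcript length in kilobases) for Hes1, 22.5 RPKM for Jag1, 17.6 RPKM for Nrarp and 15.2 RPKM for Dll1. Hes6 (12.2 RPKM) and Lfng (10.8 RPKM) came next. Hes3 (4.26 RPKM), Hes5 (3.36 RPKM), Notch1 (3.10 RPKM) and Dll3 (2.35 RPKM) were the lowest. The ranges of every pair of neighbours in this order overlapped between embryos. Lfng lay above Hes3 in 11 of 11 embryos and Dll1 above Hes6 in 10 of 11, whereas Hes1 lay above Jag1 in 7 and Hes5 above Notch1 in 6, so these pairs have no firm order. Notch1 was not the main receptor transcript of the dissected tissue as a whole: Notch2 averaged 9.35 ± 0.81 RPKM and Notch3 7.82 ± 0.93 RPKM over the 11 embryos, against 3.10 ± 0.76 RPKM for Notch1 and 0.83 ± 0.19 RPKM for Notch4 (SD, n = 11). Markers of mesenchyme, neural crest and endothelium were also present (below), so these levels are not those of the neural tube alone.

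**Figure D1:**
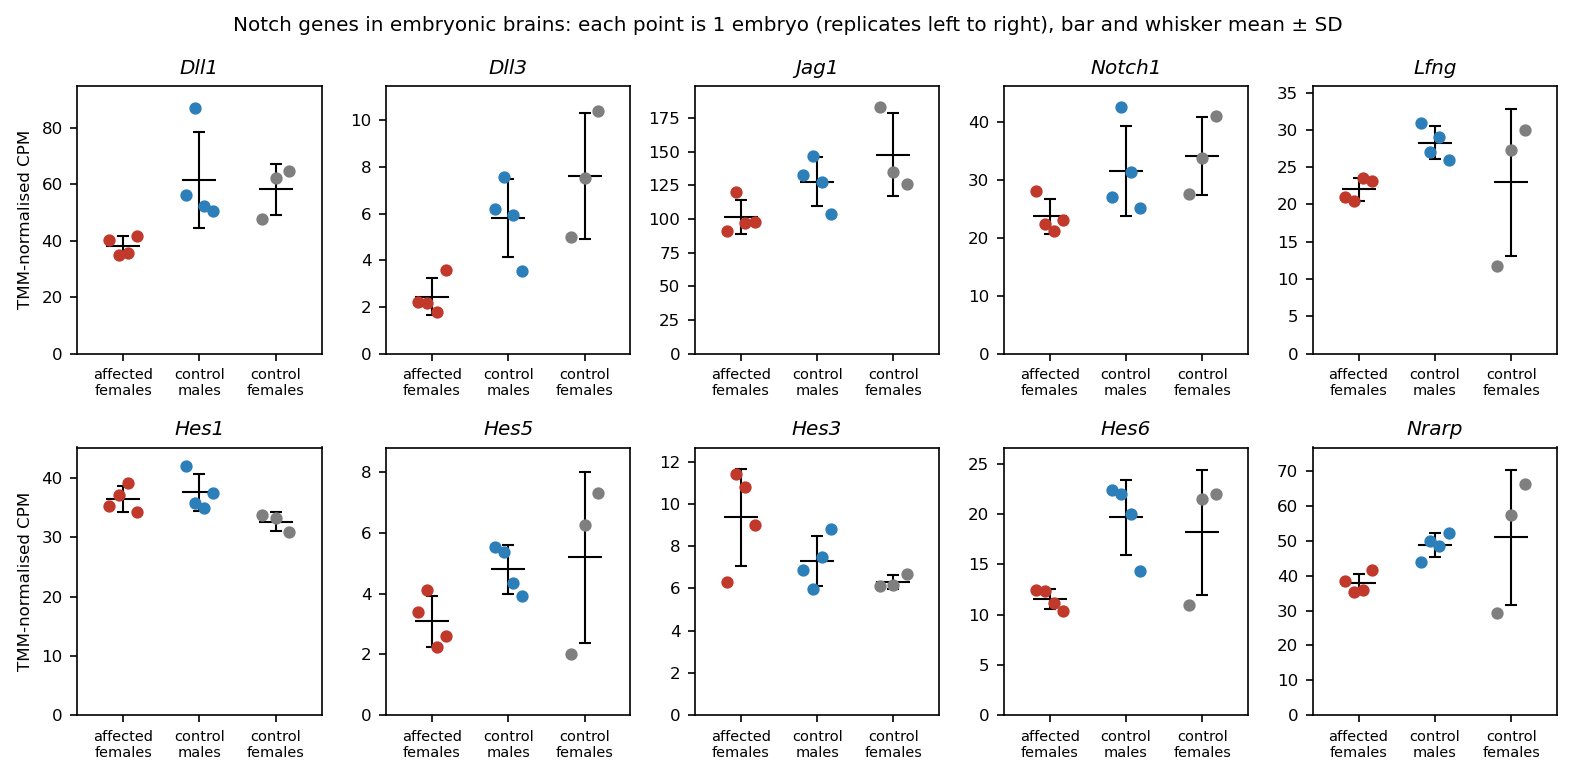
Level of each of the 10 Notch genes (TMM-normalised CPM, axis from 0) in every embryo of the 3 groups, with the mean and SD of each group as bar and whiskers. For Dll1 all 4 affected females lie below all 7 other embryos, and for Lfng, Hes5, Hes6 and Nrarp control female 1, the leftmost grey point, lies apart from the other control females.

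Affected females were first set against control males, whose genotype is also p53-/- Bim+/- but which are male and were not affected. Dll1, Dll3 and Hes6 fell, none of the 10 genes rose, and 7 did not pass the test. The 10 genes had a median log2 fold change of -0.39, against -0.02 over all 14542 genes tested, and 9 of the 10 fold changes were negative. Of all genes tested, 10.7% were called lower and 9.51% higher (20.2% in all, adjusted p under 0.05 by the quasi-likelihood test of edgeR, with p-values adjusted over all genes by the Benjamini-Hochberg method, used throughout). The ranges of the groups did not overlap for 4 members, Dll1, Lfng, Hes6 and Nrarp, all lower in affected females. Of all genes tested, 19.5% had ranges that did not overlap, 9.43% lower and 10.1% higher. Leaving out affected female 3 left 0 members called, and leaving out control male 4 gave 5. All genes called moved as well, to 361 and to 5140 in the same order, against 2940 with all libraries. Dll1, Dll3 and Hes6 each hold CAGCTG in a window described above, as do Jag1 and Lfng, which were not called. The part of these sites in the results was not tested. Sex and being affected cannot be told apart in this comparison. Bulk RNA also does not tell fewer cells of a type from less RNA per cell, here or in the comparisons that follow.

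Dll1, the main Delta ligand of the neural tube (chromosome 17, 15367354 to 15376932 in GRCm38), had 40.4, 34.9, 35.5 and 41.7 CPM in affected females 1 to 4, against 56.1, 86.8, 52.4 and 50.5 CPM in control males 1 to 4. Every affected female lay below every control male, and control male 2 stood far above its group mates. The log2 fold change was -0.69 (SE 0.15, adjusted p = 0.0123, edgeR), a level 1.61 times lower. It stayed negative in all 17 alternatives tried, between -0.77 and -0.48, with adjusted p between 0.00048 and 0.0528 (edgeR, DESeq2 or limma). The call was lost only when affected female 3 was left out, at adjusted p = 0.0528.

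Dll3 (chromosome 7, 28293555 to 28301785) showed the largest fall of the 10 genes. It had 2.19, 2.16, 1.77 and 3.58 CPM in affected females, against 6.21, 7.55, 5.92 and 3.54 CPM in control males. Affected female 4 and control male 4 met at nearly the same level, so the groups overlapped. The log2 fold change was -1.25 (SE 0.29, adjusted p = 0.0136, edgeR), 2.38 times lower in affected females. Without control male 4 the log2 fold change was -1.43 (adjusted p = 0.00152, edgeR). The call was lost without affected female 3 (log2 fold change -1.12, adjusted p = 0.0597, edgeR), and over the 17 alternatives the adjusted p ran from 0.000211 to 0.0597.

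Hes6 (chromosome 1, 91411483 to 91414038) had 12.5, 12.3, 11.2 and 10.4 CPM in affected females, against 22.4, 22.0, 20.02 and 14.4 CPM in control males. The affected females were close together and all lay below control male 4, the lowest of the males. The log2 fold change was -0.76 (SE 0.19, adjusted p = 0.0186, edgeR). The call was lost when affected female 3, affected female 4, control male 1 or control male 2 was left out (adjusted p = 0.0654, 0.0533, 0.0667 and 0.052), and the log2 fold change stayed between -0.89 (without control male 4) and -0.70 over the alternatives, with adjusted p from 3.76e-05 to 0.0667 (edgeR, DESeq2 or limma).

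Of the receptor and the remaining ligand, neither passed the test against control males. Notch1 (chromosome 2, 26457902 to 26503822) had 28.1, 22.5, 21.2 and 23.2 CPM in affected females, against 27.2, 42.6, 31.4 and 25.3 CPM in control males. The groups overlapped, and the log2 fold change was -0.41 (SE 0.16, adjusted p = 0.0795, edgeR; 95% interval -0.75 to -0.07). Jag1 (chromosome 2, 137081451 to 137116520) had 90.9, 120.1, 97.2 and 97.8 CPM in affected females, against 133, 147, 128 and 104 CPM in control males, with affected female 2 above control male 4. Its log2 fold change was -0.33 (SE 0.13, adjusted p = 0.0767, edgeR; 95% interval -0.61 to -0.06). Without control male 4 both genes were called, at -0.50 for Notch1 (adjusted p = 0.0237, edgeR, with 0.00803 to 0.264 over the alternatives) and -0.42 for Jag1 (adjusted p = 0.0162, edgeR, with 0.002 to 0.204). Jag1 was also called without affected female 2 (-0.42, adjusted p = 0.0464, edgeR).

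Lfng and the feedback inhibitor gene Nrarp did not pass the test, although their groups did not overlap. Lfng (chromosome 5, 140607341 to 140615545) had 21.0, 20.4, 23.5 and 23.2 CPM in affected females, against 30.9, 27.1, 29.1 and 25.99 CPM in control males, with no overlap. In log2 units it stood at -0.36 (SE 0.19, adjusted p = 0.185, edgeR). Nrarp (chromosome 2, 25180758 to 25183339) had 38.4, 35.3, 36.0 and 41.6 CPM in affected females, against 44.1, 50.1, 48.4 and 52.3 CPM in control males, again with no overlap, and stood at -0.37 (SE 0.17, adjusted p = 0.135, edgeR). When only these 2 groups entered the fit, Lfng (adjusted p = 0.024), Nrarp (adjusted p = 0.0165) and Jag1 (adjusted p = 0.0495) passed (edgeR). Over the alternatives the adjusted p ran from 0.00445 to 0.344 for Lfng and from 0.00885 to 0.257 for Nrarp.

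The main Notch targets Hes5 and Hes1, and Hes3 of the same family, were not called against control males. Hes5 (chromosome 4, 154960626 to 154962372) had 3.39, 4.11, 2.24 and 2.62 CPM in affected females, against 5.55, 5.38, 4.34 and 3.91 CPM in control males, with affected female 2 above control male 4. Its log2 fold change was -0.64 (SE 0.31, adjusted p = 0.147, edgeR). Hes1 (chromosome 16, 30065357 to 30067796) had 35.2, 37.2, 39.1 and 34.3 CPM in affected females, against 42.0, 35.8, 34.9 and 37.5 CPM in control males, and its log2 fold change was -0.04 (SE 0.09, adjusted p = 0.744, edgeR). The 95% interval of the Hes1 difference, -0.23 to 0.14, bounds it more tightly than that of Hes5, -1.30 to 0.02. Hes3 (chromosome 4, 152285250 to 152291911) had 6.28, 11.4, 10.8 and 9.01 CPM in affected females, against 6.86, 6.00, 7.50 and 8.82 CPM in control males, and stood in log2 units at 0.36 (SE 0.18, adjusted p = 0.162, edgeR).

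**Figure D2:**
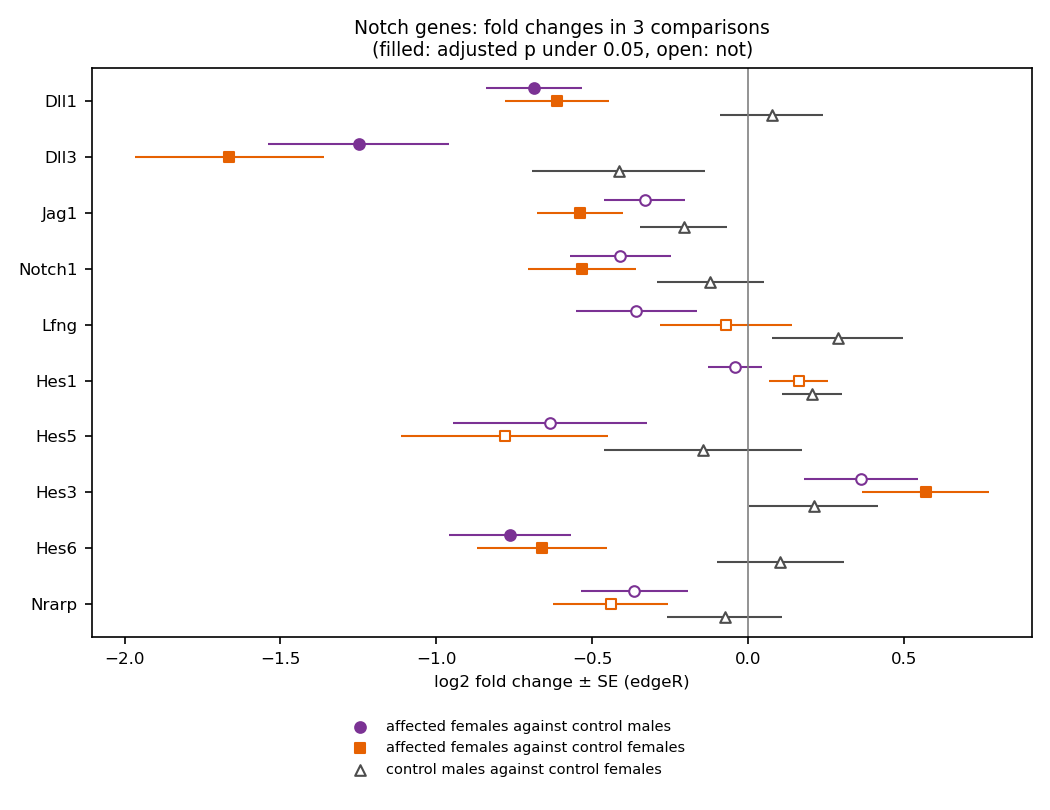
Log2 fold change of each Notch gene with its SE (edgeR) in the 3 comparisons, filled where the adjusted p was under 0.05 and open where it was not. Dll1, Dll3 and Hes6 are filled and negative in both comparisons of affected females, and all 10 genes are open in control males against control females.

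Affected females were then set against control females, which are of the same sex but p53+/+ and not affected. Dll1, Dll3, Jag1, Notch1 and Hes6 fell and Hes3 rose, while Lfng, Hes1, Hes5 and Nrarp did not pass the test. Among the members that fell, Notch1 holds no CAGCTG in its window, whereas Lfng, which was not called, does. The median log2 fold change of the 10 genes was -0.54, against -0.00 over all genes tested. Of all genes tested, 28.0% were called in this comparison, 15.0% lower and 13.0% higher. The ranges did not overlap for Dll1, Dll3 and Jag1, lower in affected females, and for Hes1, higher, whereas 40.2% of all genes had ranges without overlap, 20.0% lower and 20.2% higher. The affected females are the same 4 embryos as in the comparison above, so the 2 sets of fold changes are not independent. Leaving out affected female 3 or affected female 4 left 3 members called, leaving out control female 2 or control female 3 left 2, and leaving out control female 1 gave 8. All genes called were 1663 without control female 3 and 4579 without control female 1, against 4073 with all libraries. The p53 genotype, the level of Bcl2l11 and being affected cannot be told apart here.

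Among the ligands, Dll1 had 34.9 to 41.7 CPM in affected females, against 47.7, 62.3 and 64.5 CPM in control females 1 to 3, and the groups did not overlap. The log2 fold change was -0.61 (SE 0.17, adjusted p = 0.0161, edgeR), and the call was lost without control female 2 or control female 3 (adjusted p = 0.0642 and 0.0752, with 4.26e-05 to 0.0752 over the 16 alternatives). Dll3 had 1.77 to 3.58 CPM in affected females, against 4.98, 7.53 and 10.4 CPM in control females, again without overlap. The difference of -1.66 (SE 0.30, adjusted p = 0.00336, edgeR), 3.17 times lower in affected females, was called in all 16 alternatives, between -1.92 and -1.37, with -1.88 without control female 1. Jag1 had 90.9 to 120.1 CPM in affected females, against 183, 135 and 126 CPM in control females, and stood at -0.54 (SE 0.14, adjusted p = 0.0128, edgeR). Jag1 was called in all 16 alternatives as well, although its log2 fold change was -0.36 (adjusted p = 0.0474, edgeR, with 0.00105 to 0.0474 over the alternatives) without control female 1, its highest library.

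Notch1 and Hes6 fell with less stable calls. Notch1 had 21.2 to 28.1 CPM in affected females, against 27.5, 33.9 and 41.2 CPM in control females, and affected female 1 lay above control female 1. The log2 fold change was -0.53 (SE 0.17, adjusted p = 0.0337, edgeR). The call was lost without affected female 2, affected female 3, affected female 4, control female 2 or control female 3, with adjusted p between 0.0667 and 0.179 (edgeR), and over all 16 alternatives it ran from 0.000365 to 0.179. Hes6 had 10.4 to 12.5 CPM in affected females, against 10.97, 21.5 and 22.1 CPM in control females, so control female 1 lay within the range of affected females. Its log2 fold change was -0.66 (SE 0.21, adjusted p = 0.0302, edgeR), and the call was lost without affected female 3, affected female 4, control female 2 or control female 3 (adjusted p = 0.0733, 0.0697, 0.133 and 0.153, with 7.68e-05 to 0.153 over the alternatives). Without control female 1 the log2 fold change of Hes6 was -0.91 (adjusted p = 0.00245, edgeR) and that of Notch1 -0.66 (adjusted p = 0.0144, edgeR).

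Hes3 was the only member that rose. Its level was 6.28, 11.4, 10.8 and 9.01 CPM in affected females, against 6.11, 6.15 and 6.67 CPM in control females, and affected female 1 lay among the controls. The log2 fold change was 0.57 (SE 0.20, adjusted p = 0.0486, edgeR), just inside the threshold. It was called in 5 of 16 alternatives and lost without any one of affected females 2, 3 and 4 and control females 1, 2 and 3, with adjusted p between 0.0139 and 0.138 over all alternatives. The 7 genes that mark the midbrain and hindbrain boundary, where Hes3 is known to act, did not move together: En1 (a homeobox factor) rose by 0.73 (SE 0.17, adjusted p = 0.00907, edgeR), Cnpy1 (a modulator of FGF signalling) stood at -2.13 (SE 0.32, adjusted p = 0.00203, edgeR) and the other 5 did not pass.

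The 4 remaining members were not called against control females, and 3 of them turned on control female 1, the library with the low erythroid sum given above. The part of that sum in these values was not tested. Nrarp had 35.3 to 41.6 CPM in affected females, against 29.3, 57.4 and 66.5 CPM in control females 1 to 3. Lfng had 20.4 to 23.5 CPM in affected females, against 11.7, 27.2 and 29.9 CPM in control females. Hes5 had 2.24 to 4.11 CPM in affected females, against 1.99, 6.25 and 7.32 CPM in control females. For each of these genes control female 1 lay below all 4 affected females and control females 2 and 3 above them. With all 3 control females the log2 fold changes were -0.44 for Nrarp (SE 0.19, adjusted p = 0.0825), -0.07 for Lfng (SE 0.21, adjusted p = 0.815) and -0.78 for Hes5 (SE 0.33, adjusted p = 0.0857, edgeR). Without control female 1 they were -0.71, -0.37 and -1.14, and all were called (adjusted p = 0.000876, 0.0241 and 0.00491, edgeR). Their adjusted p ran over the alternatives from 0.000106 to 0.458, from 0.0141 to 0.95 and from 0.00123 to 0.407 in the same order of genes. Without control female 2 or control female 3 the log2 fold change of Lfng was 0.06 and 0.17. Hes1 had 34.3 to 39.1 CPM in affected females, against 33.8, 33.3 and 30.9 CPM in control females, and the log2 difference was 0.16 with a 95% interval of -0.042 to 0.36 (adjusted p = 0.21, edgeR).

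Control males were set against control females as the comparison of p53-/- with p53+/+ embryos that were not affected, in which sex and the level of Bcl2l11 differ as well. None of the 10 members was called by edgeR, DESeq2 or limma, against 0.144% of all genes tested by edgeR (0.0481% higher and 0.0963% lower). Hes1 was the 1 member with an unadjusted p under 0.05 by edgeR. It had 34.9 to 42.0 CPM in control males and 30.9 to 33.8 CPM in control females, a log2 difference of 0.20 (SE 0.10, adjusted p = 0.804, edgeR). Its ranges did not overlap, as was the case for 5.54% of all genes (2.99% higher and 2.54% lower). The log2 fold changes of the 10 genes lay between -0.42 for Dll3 and 0.29 for Lfng, with 5 positive and 5 negative. For Dll1 the difference was 0.07 (SE 0.16), with a 95% interval of -0.28 to 0.42. The interval of the Hes6 difference was -0.33 to 0.54, and that of Dll3 was wider, with an upper bound of 0.17 and a lower bound that leaves room for a 2-fold lower level in control males.

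Spread within a group was itself uneven. The coefficient of variation of the 10 genes had a median of 10.7% in affected females, 16.4% in control males and 27.6% in control females. Control female 1 was the lowest of its group for 8 members and control female 3 the highest for the same 8, namely Dll1, Dll3, Notch1, Lfng, Hes5, Hes3, Hes6 and Nrarp. Control male 4 was the lowest of its group for 7 members, Dll1, Dll3, Jag1, Notch1, Lfng, Hes5 and Hes6. No affected female was lowest for more than 3.

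Genes of the proneural step and of newborn neurons also fell in affected females. Of 10 tested proneural and cell cycle exit genes, 7 fell in affected females against control males and 6 against control females, and none rose. Of all genes tested, 10.7% fell against control males and 15.0% against control females. The median log2 fold changes of the 10 proneural and cell cycle exit genes were -0.95 and -0.85. Neurog2, a factor known to activate Dll1 and named here after its values were seen, stood at -0.75 (SE 0.23, adjusted p = 0.0368, edgeR) against control males and at -0.64 (SE 0.26, adjusted p = 0.0696, edgeR) against control females. In the same order of comparisons, Neurod1, a factor that drives neuronal differentiation, fell by 2.07 (SE 0.43) and 1.59 (SE 0.47). Of 8 newborn neuron genes, 6 fell against control males and 8 against control females. Nhlh1, a factor of newly born neurons, fell by 2.12 (SE 0.33) and 2.16 (SE 0.35), and Isl1, a homeobox factor of early motor and sensory neurons, fell by 1.29 (SE 0.23) and 1.27 (SE 0.24). Summed over the 8 neuron genes, affected females had 87.3 to 112 CPM, control males 157 to 277 CPM and control females 116 to 271 CPM. Within the controls the highest sums were in control male 2 (277 CPM), control female 3 (271 CPM) and control female 2 (234 CPM). These libraries also had the 3 highest levels of Dll1, of Dll3 and of Notch1. Hes6 was highest in control male 1 (22.4 CPM), whose neuron sum was 165 CPM. The highest affected female had a sum of 112 CPM and control female 1 one of 116 CPM. A fit without control female 1 and control male 4 was chosen after the data were seen. In it 9 of the 10 proneural genes fell against control males and all 10 against control females, and all 8 neuron genes fell in both. Control female 1 had the lowest neuron sum (116 CPM) and the lowest proneural sum (107 CPM) of the control females. Its omission therefore widens these differences by itself, and the counts of this fit are not separate support for them. With both libraries left out the count of all genes called rose against control males, as given at the end. Against control females it rose to 4579 without control female 1 alone, from 4073 with all libraries. The part of these neuron genes in the lower levels of Dll1, Dll3 and Hes6 was not tested.

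**Figure D3:**
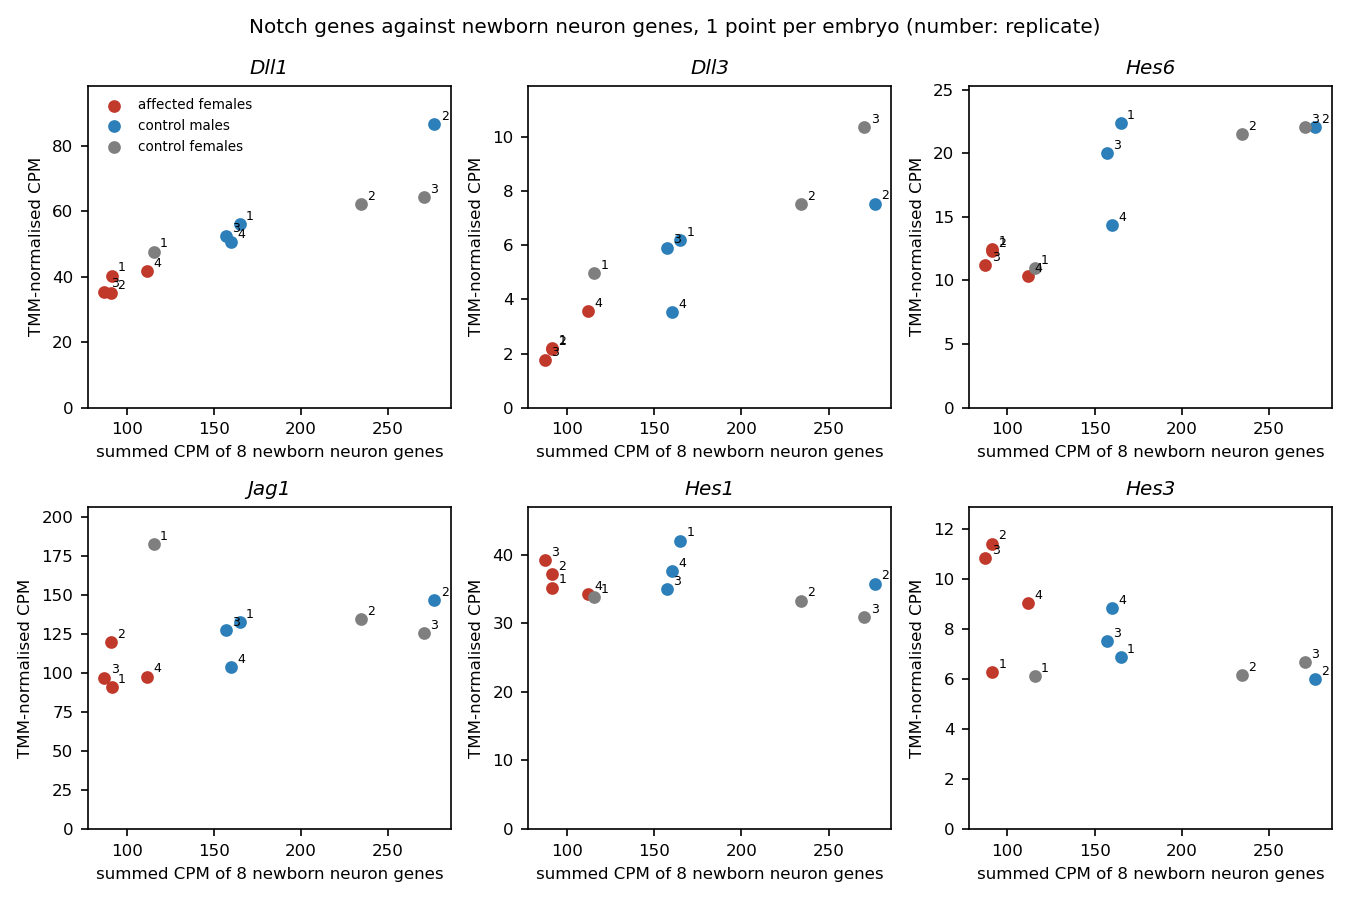
Level of 6 Notch genes (TMM-normalised CPM) against the summed CPM of 8 newborn neuron genes, with 1 point per embryo and its replicate number. Dll1 and Dll3 are highest in the embryos with the highest neuron sums. Hes6 is high in these embryos and also in control males 1 and 3 at lower sums. Hes1 stays between 30.9 and 42.0 CPM across the whole range of sums.

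Progenitor and other cell type markers moved less or the other way. None of 6 neuroepithelium markers was called against control males, where 9.51% of all genes tested rose and 10.7% fell. Against control females, where 13.0% of all genes rose and 15.0% fell, Sox2 and Sox3 rose, by 0.39 (SE 0.11) and 0.72 (SE 0.21). Sox3 lies on the X chromosome, and Xist was lower in affected females than in control females, as given above. Against control males sex differs as well. The part of the X chromosome in the values of Sox3, here and below, was not tested. All 7 surface ectoderm and otic markers rose against control females and 6 against control males, among them Cdh1 (E-cadherin), whose mean was 67.5 CPM in affected females, against 38.1 CPM in the control males and 40.6 CPM in the control females. Summed over the 7 markers, affected females had 229.6 to 263 CPM, control males 123 to 183 CPM and control females 111 to 214 CPM, and the sum was highest among controls in control female 1. Endothelial markers, a cell type that uses Notch1, Jag1 and Dll4, summed to 237 to 295, 222 to 283 and 267 to 273 CPM in these groups, with none of 8 called against control males and Tie1 and Erg lower against control females. Of 6 mesenchyme and neural crest markers, Sox10 rose against control males and Sox10, Foxd3 and Twist1 against control females. Their sum was 240 to 292 CPM in affected females, 212 to 253 CPM in control males and 203 to 243 CPM in control females. None of 4 primitive erythroid genes was called in either comparison, and their sum was 1008 to 2097 CPM in affected females, 1944 to 3388 CPM in control males and 492 to 4067 CPM among the control females. Without control female 1 and control male 4, when more of all genes were also called against control males, 7 ectoderm and otic markers rose in both comparisons. These 2 libraries had the highest ectoderm and otic sums of their groups (214 and 183 CPM), so leaving them out widens that difference by itself. Against control females more of all genes were called when control female 1 alone was left out. The same omission left 4 mesenchyme and crest markers higher against control males and 3 against control females, 1 neuroepithelium marker (Sox3) higher against control males and 2 against control females, and 2 erythroid genes lower against control males and 3 against control females. The part of these markers in the results for the 10 genes was not tested.

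Of 44 other Notch pathway genes, 40 were tested. Against control males 5 rose and 6 fell, and their median log2 fold change was -0.08. Against control females 3 rose and 5 fell, with a median of -0.01. Over all genes tested, 9.51% rose and 10.7% fell against control males, and 13.0% rose and 15.0% fell against control females. Control males against control females gave no call among the 40 by edgeR or DESeq2 and 3 by limma, with 2 at an unadjusted p under 0.05 by edgeR. The counts rested on single libraries. Against control males they were 1 when affected female 3 was left out, 4 for affected female 4, control male 1 or control male 2, 6 for control male 3 and 16 for control male 4. Against control females they were 5 for affected female 2, affected female 3 or control female 3. All genes called also moved when 1 library was left out, from 361 to 5140 against control males and from 1663 to 4579 against control females.

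Dlk1, a non-canonical ligand relative and an imprinted gene, fell by 0.83 (SE 0.19, adjusted p = 0.012, edgeR) against control males and by 0.83 (SE 0.20, adjusted p = 0.00945, edgeR) against control females. Dner, a Delta-like protein of neurons, fell by 1.03 (SE 0.35, adjusted p = 0.0414, edgeR) against control females. The fringe gene Mfng fell by 0.71 (SE 0.18, adjusted p = 0.012, edgeR) against control females, and Rfng, the third fringe, by 0.35 (SE 0.11, adjusted p = 0.0341, edgeR) against control males. Poglut1, which adds glucose to the receptor, fell by 0.35 (SE 0.09, adjusted p = 0.0174, edgeR) against control males.

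Among targets, Hey1 averaged 25.8 ± 3.51 CPM in affected females (SD, n = 4), against 33.6 ± 3.44 CPM in the control males (n = 4) and 36.3 ± 4.56 CPM in the control females (n = 3). It fell by 0.38 (SE 0.12, adjusted p = 0.0345, edgeR) against control males and by 0.49 (SE 0.13, adjusted p = 0.0129, edgeR) against control females. Hey2 fell by 0.58 (SE 0.16, adjusted p = 0.0227, edgeR) against control males, with 6.59 ± 0.62 CPM in affected females against 9.84 ± 1.83 CPM in control males, and stood at -0.21 against control females.

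Of 6 genes of the nuclear complex, 4 rose against control males and 2 against control females, and none fell. Rbpj, the DNA-binding partner of Notch, rose by 0.29 (SE 0.09, adjusted p = 0.0372, edgeR) against control males. The Mastermind coactivator genes Maml1, Maml2 and Maml3 rose by 0.38 (SE 0.10), 0.40 (SE 0.13) and 0.65 (SE 0.13) against control males. Against control females Maml1 rose by 0.45 (SE 0.11) and Snw1, a splicing factor that also binds the Notch complex, by 0.36 (SE 0.12). Rbpj, Maml2 and Maml3 did not pass against control females (adjusted p = 0.11, 0.0989 and 0.104, edgeR). Of the Deltex genes, which encode ubiquitin ligases, Dtx1 rose by 1.28 (SE 0.30, adjusted p = 0.0139, edgeR) against control males at a low level, 1.42 ± 0.22 CPM in affected females against 0.58 ± 0.05 CPM in control males. Dtx2 rose by 0.64 (SE 0.19, adjusted p = 0.0266, edgeR) against control females. Dtx3 fell by 0.62 (SE 0.17, adjusted p = 0.024, edgeR) against control males and by 0.94 (SE 0.18, adjusted p = 0.00422, edgeR) against control females. None of 9 genes for proteases that cut Notch or its ligands, or for subunits of such proteases, passed in either comparison. Neither did Notch2, Notch3 or Notch4.

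**Figure D4:**
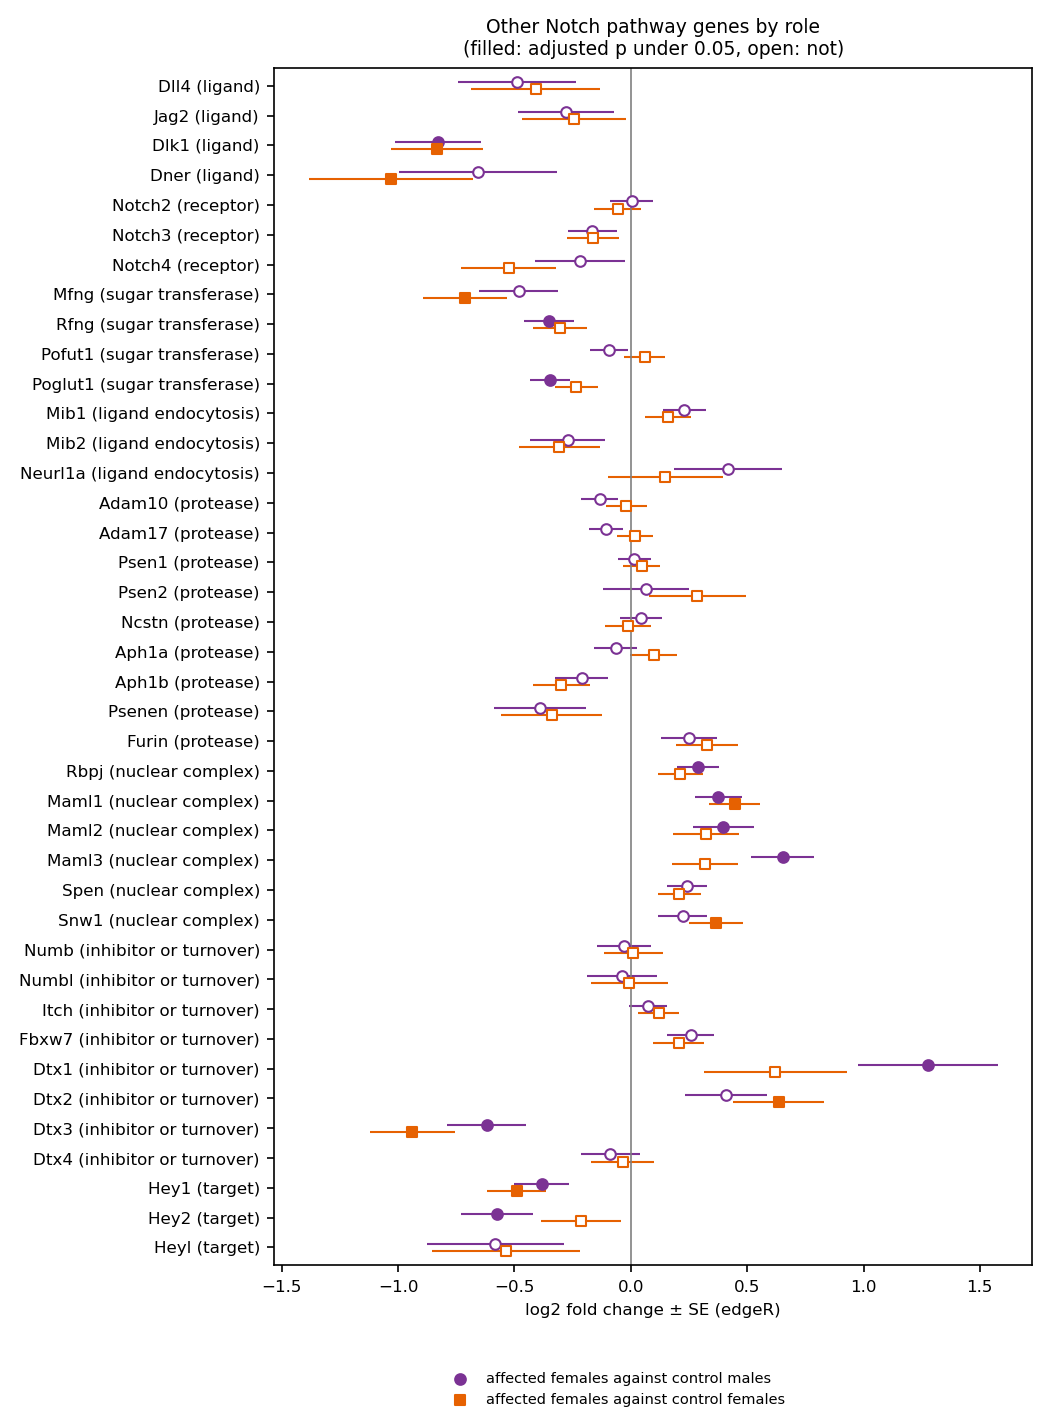
Log2 fold change with its SE (edgeR) of 40 other Notch pathway genes, grouped by role, for affected females against control males (circles) and against control females (squares), filled where the adjusted p was under 0.05. The Mastermind genes and Rbpj lie right of 0 and the Hey genes left of it in both comparisons, with only some of them filled.

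Genes with a profile like that of a member were sought over the 11 libraries by Pearson's r of log2 CPM, as a description. The libraries share group structure and the spread of neuron genes described above. For Dll1 the closest were Zic4, a zinc finger factor (r = 0.985), Scube1 (r = 0.983) and Ndst3 (r = 0.978). Zic4 averaged 7.55 CPM in affected females, against 19.96 CPM in control males and 19.8 CPM in the control females. For Notch1 they were 0610009E02Rik (r = 0.964), Tmem44 (r = 0.964) and Serinc1 (r = 0.955). The first of these is a non-coding RNA gene on chromosome 2 (26445924 to 26459390) that shares 1489 bases with the span of Notch1, and since no source used here gives the strand setting of the counting, reads of the pair cannot be told apart in that stretch. For Hes5 the closest were Pnma1 (r = 0.969), Lyrm2 (r = 0.968) and Tspan32 (r = 0.965). The span of Hes3 shares 93 bases with Gpr153, and that of Notch1 also holds the microRNA gene Mir6996.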

How the data were processed

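The authors deposited raw counts for each Entrez gene and its length, 1 table per embryo. The submitters' processing notes name featureCounts and mm10. Not given in the sources used here are the aligner, the versions, the strand setting and the annotation. Identifiers were matched to symbols with a RefSeq table of GRCm38.p6 (25275 of 27179). All 11 libraries entered a single quasi-likelihood fit in edgeR 4.0.16 (R 4.3.3), with group as the factor, filterByExpr and TMM scaling. Benjamini-Hochberg adjusted p-values under 0.05 were called. The SE is the log2 fold change divided by the square root of F, and log2 CPM used a prior count of 2. RPKM is CPM over the deposited length. Alternatives used RLE scaling, autosomal TMM, other filters, DESeq2 1.42.0, limma 3.58.1 voom with sample weights, other sets of libraries and the replicate number as a block. Omission of control female 1 with control male 4 was added after the data were seen. The members and lists were chosen with earlier results of these data known. Named are all members, every called gene of the other Notch list, up to 3 genes of smallest p in each companion list, and the 3 genes most like Dll1, Notch1 and Hes5. The labels call the embryos separate but give no litter, batch or date. The fit was tested on simulated counts. For affected females against control males it recovered 61.2% of 1.5-fold and 88.1% of 2-fold changes. Against control females it recovered 44.8% and 74.6%, so smaller changes can be missed. The simulation changed only 67 genes at each of these folds, far fewer than were called in the data. It also gave each gene the same dispersion in all groups. The rates therefore need not hold for the real counts.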

Additional observations from a re-analysis of the deposited data

Results flagged for a closer look

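Each member was examined for an embryo far from its group in the groups of 4, which made 20 group profiles, and chance gives about 1 in 20. A single value met the criterion: Dll1 in control male 2 was at 86.8 CPM, with the other control males between 50.5 and 56.1 CPM. The gap took up 0.845 of the range of the group, above Dixon's 95% critical value for 4 samples. The same embryo had the highest sum of newborn neuron genes of all libraries, 277 CPM. Without it the log2 fold change of Dll1 in affected females against control males was -0.48.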

How the results depend on the processing

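Counts of calls moved with the test and with single libraries, while no called member changed direction in the alternatives run. For affected females against control males the members called were 8 with limma voom and sample weights, 6 with only these groups in the fit, 8 without control female 1 and control male 4, and 0 to 5 leaving out 1 library, against 3. All genes called were 6397, 6014 (without these 2 libraries) and 361 (without affected female 3) to 5140 (without control male 4), against 2940, with 658 to 1470 when affected female 4 or control male 1, 2 or 3 was left out. Other Notch genes called were 21, 17 and 1 to 16, against 11. For affected against control females the members called were 3 with the replicate block and 2 to 8 leaving out 1 library, against 6. All genes called were 7639 with voom and 1663 (without control female 3) to 4579 (without control female 1), against 4073, with 1924 without control female 2, 1967 without affected female 3 and 2605 without affected female 4. Other Notch genes called were 22 with voom, 15 without the 2 libraries and 5 to 11, against 8. For control males against control females all genes called were 43 with DESeq2, 1569 with voom and 18 to 35 (without control male 2) leaving out 1 library, against 21, and other Notch genes called were 3 with voom, against 0. The cause of these shifts was not tested. Only uncalled fold changes turned round. With voom Hes1 was at 0.026 in affected females against control males, and Dll1 and Hes6 at -0.20 and -0.062 in control males against control females. In the last comparison Jag1 and Hes6 were at 0.062 and -0.020 without the 2 libraries. Leaving out 1 library, the ranges were -0.079 to 0.014 for Hes1 in affected females against control males and -0.37 to 0.17 for Lfng in affected against control females. In control males against control females they were -0.14 to 0.16 for Dll1, -0.30 to 0.035 for Notch1, -0.017 to 0.52 for Lfng, -0.51 to 0.19 for Hes5, -0.15 to 0.27 for Hes6 and -0.35 to 0.16 for Nrarp. Replicate numbers were treated as names only: deviations of same-numbered embryos correlated between -0.14 and 0.18, and 2 of 11 libraries matched best with their own number. With the replicate block, Notch1, Hes3 and Hes6 lost their calls against control females. Low counts, with no more than 116 in any library, limit the precision of Dll3, Hes5 and Hes3.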
